A study of Mus musculus with 8 samples.

Results

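Footpad skin of mouse embryos with a conditional knockout of Dicer (Dicer cKO, here KO) was compared with wild-type footpad skin (WT) at E17.5, named for the embryonic day. Dicer is the enzyme that cuts hairpin precursors into mature microRNAs. The comparison rests on 4 of the 8 arrays of the study, which were chosen by their titles: 2 KO arrays and 2 WT arrays, all on 1 slide. The other 4 arrays hold the same genotypes at E16.5 on another slide and are used here for the shared estimate of the spread and as a second set of KO and WT samples. All embryos were of the C57BL6 background, and each array held total RNA pooled from the footpads of 3 to 5 embryos. The Cre driver and the age at which Dicer was deleted are not given in the sources used here. The labels call the arrays biological replicates. The footpad RNA was labelled with the dye Cy3 throughout, and each array also held Cy5-labelled universal mouse reference RNA; no dyes were swapped. Footpad skin holds epidermis, forming sweat glands, dermis, vessels, nerves and blood, and in such bulk RNA fewer cells of a type and less RNA per cell cannot be told apart.

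Footpad skin is the main place in the mouse where eccrine sweat glands form, and the title of the study places its question after glands have been induced. A microRNA guides Argonaute proteins to messenger RNAs that pair with its seed, bases 2 to 8 from its 5′ end, and such targets are translated less and degraded. Loss of Dicer stops the supply of nearly all microRNAs, so direct targets can rise, while genes further downstream can move either way. Let-7, miR-203, miR-205 and the miR-200 family are microRNAs known for their abundance or function in skin epithelium.

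The array carries 42006 probes of 60 bases. A total of 27598 were well above background in Cy3, as Feature Extraction marks it, on both KO or both WT arrays at E17.5, and 27211 of these had a value on all 4 arrays and were tested. The value of a probe is its log2 ratio, log2 of the processed Cy3 over the processed Cy5 intensity, so 0 means equal to the reference RNA and a step of 1 is a 2-fold change. KO minus WT is the difference between the 2 group means of this ratio. The files name no genes: in every gene name column the probe's own identifier is repeated. Probes are therefore given by identifier and sequence, and neither the Dicer transcript nor marker genes of skin could be read to check the labels. Across tested probes the 2 KO arrays correlated at r = 0.988 and the 2 WT arrays at r = 0.991, against 0.977 to 0.982 between a KO and a WT array.

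The sequences of 6 probes described below are shown first, 3 from the 12 widest rises and the 3 widest falls measured on all 4 arrays, since they are what identifies the transcripts. The first 3 were higher and the last 3 lower in KO.
Z00024060-1: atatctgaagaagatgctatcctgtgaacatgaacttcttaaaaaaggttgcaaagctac
Z00029389-1: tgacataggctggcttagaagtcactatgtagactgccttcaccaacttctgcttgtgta
Z00051493-1: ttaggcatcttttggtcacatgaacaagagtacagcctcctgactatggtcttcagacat
Z00008117-1: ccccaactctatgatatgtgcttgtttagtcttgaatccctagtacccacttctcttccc
Z00022648-1: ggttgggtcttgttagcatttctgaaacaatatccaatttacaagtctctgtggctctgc
Z00048632-1: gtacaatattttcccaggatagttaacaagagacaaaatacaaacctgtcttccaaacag

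At E17.5 3078 probes differed between KO and WT in limma's moderated test at a Benjamini-Hochberg adjusted p under 0.05, 11.3% of the 27211 tested. Of these 1374 were higher in KO (5.05% of those tested) and 1704 were lower (6.26%); with each array centred on its median the split was nearly even, 1468 against 1487. Most differences were small: the median fold was 1.28 among the rises and 1.32 among the falls, with a median standard error of 0.077 on the log2 scale over all tested probes. Over 2-fold there were 84 rises and 138 falls (0.309% and 0.507% of tested probes), but among probes well above background on all 4 arrays these were 69 and 77. Over 4-fold such measured probes gave 5 rises and 7 falls, and over 8-fold 0 and 3. In all 3078 the KO arrays lay on 1 side of both WT arrays, as they did in 60% of all tested probes. The spread behind these calls was pooled over the 4 groups of both stages, and with the 4 E17.5 arrays alone limma called 0 probes (smallest adjusted p = 0.0543, 7006 at an unadjusted p under 0.05). With 1 of the E17.5 arrays left out, 199 calls were made when it was WT replicate 1, 493 for WT replicate 2, 432 for KO replicate 1 and 813 for KO replicate 2. Leaving out an E16.5 array gave 1170 calls for each WT array and 1949 for each KO array.

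**Figure D1:**
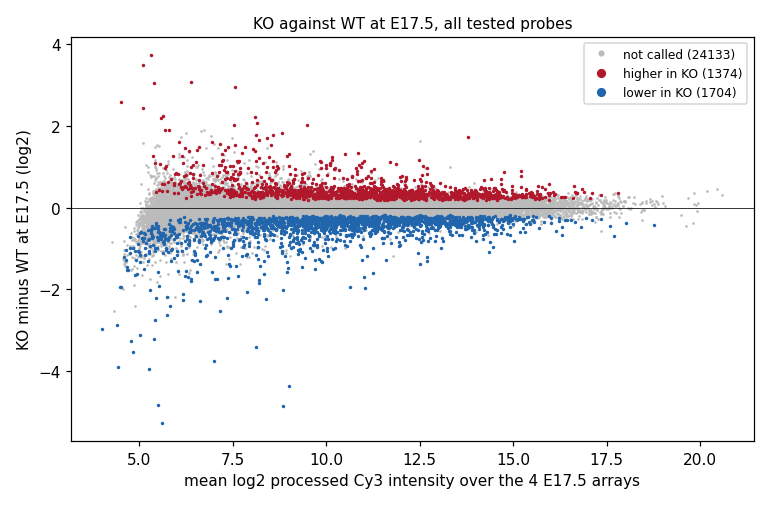
KO minus WT at E17.5 (log2, vertical axis) against the mean log2 processed Cy3 intensity over the 4 E17.5 arrays (horizontal axis) for the 27211 tested probes, each point 1 probe. The 1374 probes called higher and the 1704 called lower in KO are coloured, and most lie within 1 log2 unit of 0, with the widest differences at the dim end.

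The spread of these 3078 calls over dim and bright probes was uneven. Among the 25060 tested probes well above background on all 4 arrays, 1353 were higher and 1552 lower. Another 2076 probes passed the filter through the WT arrays alone, and of these 152 were lower and 5 higher. Just 75 passed through the KO arrays alone, and 16 of them were higher and 0 lower. Calls in either direction were 7.56% and 21.3% of these 2 sets, against 11.3% of all tested probes. A probe that passes only through the group where it is bright tends to differ in that direction. These counts therefore describe the filter and not the genotype. Cy3 was well above background in 61.4% and 64.5% of probes on the KO arrays and in 69.0% and 65.9% on the WT arrays. For Cy5, which held the reference RNA, the shares were 70.5% and 77.4% on the KO arrays and 79.1% and 79.2% on the WT arrays. The part of these gaps in the counts of falls was not tested.

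Among probes measured on all 4 arrays, which here refers to Cy3 alone, the widest rise was that of Z00024060-1. Its log2 ratios were 4.54 and 5.45 on the KO arrays and 2.01 and 2.05 on the WT arrays. Both KO values lay far above both WT values, a difference of 2.96 ± 0.31 (SE), or 7.79-fold (adjusted p = 0.00895). At E16.5 the same probe read 4.50 and 4.31 in KO and 4.70 and 5.19 in WT, so the E17.5 WT arrays held the low values and the other 6 arrays the high ones. With normexp background correction fitted without the marked spots (described with the processing), the E17.5 difference was 1.55. In Cy3 alone it was 2.35, while the Cy5 value differed by -0.60. The Cy5 signal of this probe was dim, so its fold in the ratio rests partly on the reference channel.

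Several other wide rises also had their E17.5 WT arrays below all others, among them Z00040026-1 and Z00029389-1. Z00040026-1 read 2.69 and 3.62 in KO and 1.07 and 1.08 in WT, a difference of 2.08 ± 0.28 (SE, adjusted p = 0.0157). At E16.5 its group means were 5.17 in KO and 5.24 in WT, above every E17.5 array. Z00029389-1 read 0.17 and 0.75 in KO and -1.52 and -1.60 in WT, a difference of 2.01 ± 0.19 (SE, adjusted p = 0.007), and 1.17 with normexp. Its E16.5 means were 3.46 and 3.36. In both probes the KO value at E17.5 lay between the E17.5 WT value and the values at E16.5. Stage and slide coincide, so a step from E16.5 to E17.5 cannot be told apart from a step between slides.

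Other wide rises had E16.5 differences of the same sign. Z00051493-1 read 1.04 and 0.98 in KO and -0.68 and -0.62 in WT, with hardly any spread within a genotype. The difference was 1.66 ± 0.10 (SE), or 3.17-fold (adjusted p = 0.00549), against 1.01 at E16.5 (adjusted p = 0.0293). Z00039229-1 read 1.37 and 1.52 in KO and -1.62 and 0.07 in WT, so its WT arrays lay far apart. It differed by 2.22 ± 0.50 (SE, adjusted p = 0.0454) at E17.5 and by 2.23 (adjusted p = 0.109) at E16.5. Z00066487-1 differed by 1.78 (adjusted p = 0.0467) and at E16.5 by 1.68 (adjusted p = 0.124), which did not pass. It lost its E17.5 call in Cy3 alone (1.61, adjusted p = 0.0668).

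Z00033785-1 read 8.21 and 7.94 in KO against 6.33 and 6.34 in WT. It differed by 1.73 ± 0.19 (SE, adjusted p = 0.00984) in the ratio and by 2.89 in Cy3 alone, and its Cy5 value differed by 1.17 in the same direction. Z00005714-1 read 4.74 and 5.13 in KO and 3.33 and 3.00 in WT, 1.77 ± 0.17 apart (SE, adjusted p = 0.00765). The remaining 4 of the 12, Z00059577-1, Z00027174-1, Z00061994-1 and Z00024642-1, differed by 1.83, 1.70, 1.60 and 2.02. At E16.5 Z00059577-1 went the other way, at -0.59, and the other 3 were at 0.52, 0.96 and 0.53, none of the 4 passing the test there. Of these, Z00024642-1 differed mainly in its reference channel: in Cy3 alone KO exceeded WT by 0.21 (adjusted p = 0.251), while Cy5 differed by -1.80, and with normexp fitted on all spots the ratio reversed to -0.95 (adjusted p = 0.434).

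Falls reached further than rises among probes measured on all 4 arrays. Z00008117-1 read 0.30 and -0.61 in KO and 4.61 and 4.77 in WT, so that the transcript stood far above the reference in WT and near it in KO. The difference was -4.85 ± 0.33 (SE), or 28.8-fold lower (adjusted p = 0.00549), and -4.04 at E16.5 (adjusted p = 0.0258). Z00022648-1 read 0.44 and -0.48 in KO and 4.37 and 4.35 in WT. It was 20.7-fold lower in KO at E17.5 (-4.37 ± 0.28, SE, adjusted p = 0.00549) and differed by -2.85 at E16.5 (adjusted p = 0.0293).

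Z00048632-1 read 4.58 and 4.35 in KO and 7.83 and 7.91 in WT. It was 10.6-fold lower (-3.41 ± 0.17, SE, adjusted p = 0.00395), and at E16.5 it differed by -2.76 (adjusted p = 0.0198). Its Cy5 signal was not well above background on all 4 arrays. The same held for Z00023298-1, Z00076473-1, Z00037100-1, Z00028342-1 and Z00038785-1 among the 12 widest falls. Among the 12 widest rises it held for Z00024060-1, Z00024642-1, Z00027174-1 and Z00061994-1. The ratios and folds of these probes therefore rest partly on a dim reference signal. Z00008117-1, Z00022648-1 and Z00048632-1 were the only falls over 8-fold among called probes measured on all 4 arrays, and all 3 passed the test at E16.5 too. The E16.5 arrays share no sample with the E17.5 comparison, but share the estimate of the spread and the array positions of each genotype. In the remaining 9 of the 12 widest falls KO was lower by 1.76 to 2.24 log2 units.

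**Figure D2:**
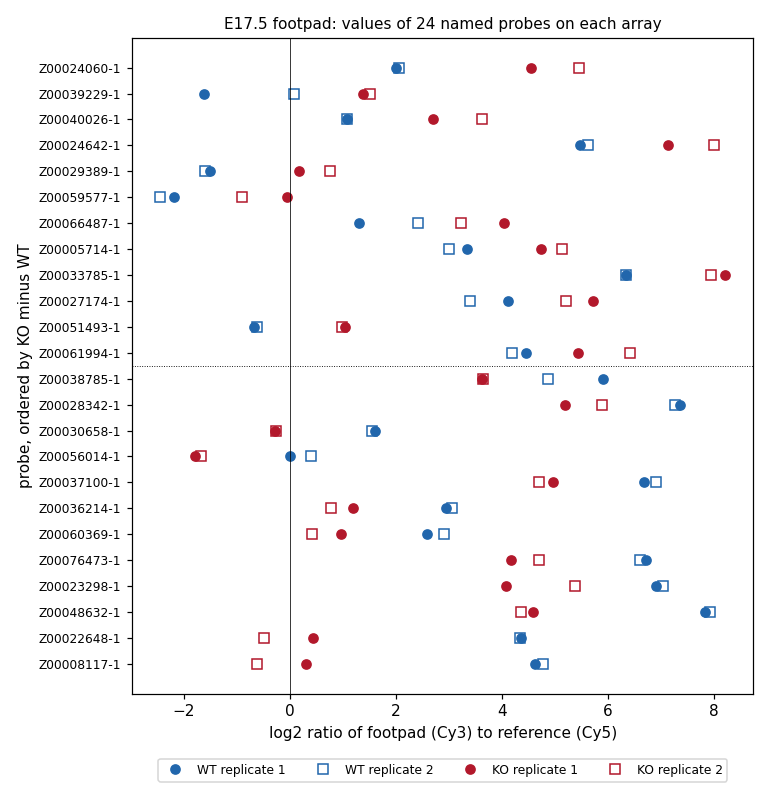
Log2 ratio of footpad (Cy3) to reference (Cy5) on each E17.5 array (horizontal axis) for the 12 widest rises and 12 widest falls among called probes well above background on all 4 arrays, ordered by KO minus WT. Filled points are replicate 1 and open squares replicate 2. In each probe both KO points lie on 1 side of both WT points, and the gap is widest in Z00008117-1 at the bottom.

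Several of the other falls differed from the top 3 in their E16.5 values. Z00037100-1 read 4.97 and 4.70 in KO and 6.67 and 6.91 in WT, a difference of -1.96 ± 0.38 (SE, adjusted p = 0.0332), while its E16.5 means were 2.65 in KO and 2.58 in WT. Both genotypes were thus higher on the E17.5 slide, KO by less; the same difference was -3.03 with normexp and -3.25 in Cy3 alone. Z00056014-1 read -1.79 and -1.68 in KO and 0.00 and 0.39 in WT, -1.94 ± 0.13 apart (SE, adjusted p = 0.00549), with E16.5 means of -2.27 and -2.14. Z00038785-1 differed by -1.76 (adjusted p = 0.0262) at E17.5 and by -0.01 at E16.5, and it lost its call with normexp (-0.47, adjusted p = 0.105) and in Cy3 alone (-1.09, adjusted p = 0.078).

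Z00030658-1 was the most even of the wide falls. It read -0.28 and -0.26 in KO and 1.61 and 1.55 in WT, -1.85 ± 0.07 apart (SE, adjusted p = 0.00246), and it differed by -0.88 at E16.5 (adjusted p = 0.0268). Z00023298-1, Z00076473-1 and Z00028342-1 had differences of -2.24, -2.22 and -1.77, which shrank to -0.94, -1.08 and -1.01 with normexp and kept their calls. In Cy3 alone they were -0.95, -1.55 and -1.15.

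For probes that were not well above background on either array of 1 genotype, the ratio on the dim side is not a level, and only a bound is given. They passed the filter through the bright genotype alone, so the p-values of these 8 are given as part of the fit and support nothing. The bound sets the bright group's mean Cy3 against the lowest Cy3 signal among probes well above background on the dim arrays. These Cy3 levels were taken from the processed signals after Aquantile scaling, which gives the mean log2 signal of both dyes the same distribution on every array. A bound therefore also depends on the Cy5 signal and on that scaling. Z00022485-1 was at least 11.8-fold lower in KO, with ratios of 2.39 and 2.40 in WT (adjusted p = 0.00344). Z00054665-1 and Z00070655-1, 2 probes with the same 60 bases, were at least 6.58-fold and 5.996-fold lower (adjusted p = 0.00549 and 0.0056), and Z00023200-1 at least 3.79-fold lower (adjusted p = 0.00599). At E16.5 the identical pair differed by -4.17 and -4.25, both called there (adjusted p = 0.0278), whereas Z00023200-1 read 0.27 higher in KO and did not pass. Whether these probes were well above background on the E16.5 arrays was not checked, so these E16.5 differences are not measured sizes either.

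Bounds on the other side were smaller. Z00063787-1 was at least 5.47-fold higher in KO (adjusted p = 0.0365), Z00047905-1 at least 5.43-fold (adjusted p = 0.0313), Z00058004-1 at least 4.26-fold (adjusted p = 0.00984) and Z00005799-1 at least 3.71-fold (adjusted p = 0.00687). The bounds hold for the processed signals only: with normexp the falls were between -2.04 and -0.86 and the rises between 0.62 and 0.93 on the log2 scale, in each of the 8 probes smaller than its bound. Over all 37 named probes 20 log2 differences moved by more than 1.5 times with normexp and 35 calls held.

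Some probes overlap in sequence and so read a transcript more than once on each array. The first pair is among the rises of smallest adjusted p and the second among the 12 widest falls; capitals mark the bases that the 2 probes of a pair share.
Z00030723-1: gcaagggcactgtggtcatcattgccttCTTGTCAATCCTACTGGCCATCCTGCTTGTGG
Z00073972-1: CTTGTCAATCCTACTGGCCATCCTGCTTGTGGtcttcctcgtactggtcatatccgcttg
Z00060369-1: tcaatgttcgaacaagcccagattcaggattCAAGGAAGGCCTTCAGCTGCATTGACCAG
Z00036214-1: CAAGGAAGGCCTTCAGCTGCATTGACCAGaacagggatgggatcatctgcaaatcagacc

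Z00030723-1 read 2.16 and 2.34 in KO and 0.94 and 0.91 in WT, and Z00073972-1, which shares 32 bases with it, read 2.15 and 2.31 in KO and 0.95 and 0.85 in WT. The pair rose by 1.32 ± 0.07 and 1.33 ± 0.08 (SE, adjusted p = 0.00478 and 0.00528). At E16.5 both genotypes read higher and alike, at a group mean of 2.91 in both KO and WT for the first probe, and the KO minus WT values were 0.00 and 0.01. The 2 probes sharing 29 bases, Z00060369-1 and Z00036214-1, fell by 2.06 ± 0.28 and 2.02 ± 0.21 (SE, adjusted p = 0.0166 and 0.00925), and read -1.20 and -1.07 at E16.5 (adjusted p = 0.119 and 0.0929). Overlapping probes of a pair read the same RNA and are no separate samples.

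Over the whole array 563 pairs of tested probes shared at least 20 bases end to start. In 49 pairs both probes were called, and in all 49 they differed in the same direction. In 48 pairs only 1 probe was called, and the sign of the other was the same in 43. The median gap between the differences of a pair was 0.052. For 11 pairs with the same 60 bases the median gap was 0.054 and the widest 0.68, and 10 had the same call. Both median gaps lay below the median standard error of 0.077. A gap compares probes on the same arrays, so it leaves out the spread between arrays that the standard error measures.

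The smallest adjusted p among the rises was that of Z00025459-1, which read 0.68 and 0.64 in KO and -0.41 and -0.40 in WT. Its difference was 1.06 ± 0.05 (SE, adjusted p = 0.00334), and at E16.5 it was 0.49 (adjusted p = 0.0293). Among the falls it was shared by Z00049277-1 and Z00022985-1. Z00049277-1 read 0.61 and 0.64 in KO and 2.20 and 2.27 in WT, a difference of -1.61 ± 0.05 (SE, adjusted p = 0.0019), and differed by -0.96 at E16.5 (adjusted p = 0.0191). In both probes the values of a genotype were nearly the same on its 2 arrays at E17.5.

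The E16.5 arrays give KO minus WT in samples that the E17.5 comparison does not use, apart from the shared estimate of the spread. Each genotype lay at the same array positions on both slides, so a shared sign does not tell genotype from position. Of the 26968 probes with values on all 8 arrays, 166 were called at E16.5 (0.616%), 45 higher and 121 lower in KO. Among the 3057 E17.5 calls with such values, the sign was shared by E16.5 in 2713 (88.7%), against 17952 of all 26968 probes (66.6%). The probes called higher at E17.5 had a median log2 difference of 0.36 there and 0.14 at E16.5, and those called lower had -0.40 and -0.19; over all probes the medians were -0.0033 and 0.0053. Of the 3057, 2825 differed by more at E17.5, the stage at which they had been chosen for differing, against 16255 of all 26968 probes.

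Calls in the same direction at both stages were made for 146 probes, and 1 probe was called in opposite directions. The 146 are 88.0% of the E16.5 calls, against 11.3% of all tested probes called at E17.5. They are 4.78% of the E17.5 calls, against 0.616% of all probes called at E16.5. Both calls use the same estimate of the spread, so the lists are not independent and part of their overlap is built in. Of the 217 calls over 2-fold, 178 kept their sign on the E16.5 arrays and 36 were called there, 7 higher and 29 lower. Over 2-fold rises kept their sign in 62 of 83 probes and over 2-fold falls in 116 of 134. Their median differences were 1.26 and -1.32 at E17.5 against 0.36 and -0.57 at E16.5.

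**Figure D3:**
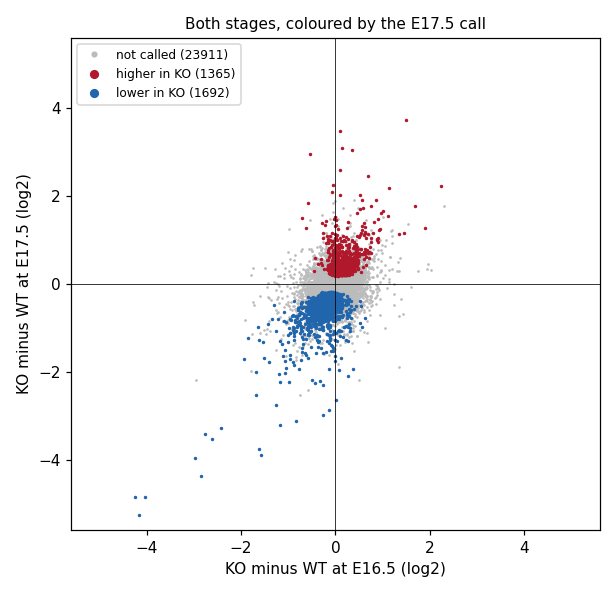
KO minus WT at E17.5 (log2, vertical axis) against KO minus WT at E16.5 (log2, horizontal axis) for the 26968 probes with values on all 8 arrays, each point 1 probe, coloured by the E17.5 call. Z00008117-1, Z00022648-1 and Z00048632-1 lie at the lower left with both values below -2, while many rises over 2-fold lie close to 0 on the E16.5 axis.

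The difference between the 2 stage effects was tested directly in the same fit. It was called for 1 probe, Z00022985-1 (0.00371% of those tested), with 3244 probes at an unadjusted p under 0.05. Z00022985-1 read -0.67 and -0.92 in KO and 2.17 and 2.00 in WT at E17.5, a difference of -2.88 ± 0.10 (SE, adjusted p = 0.0019). At E16.5 it read -1.37 and -1.33 in KO and -1.21 and -1.21 in WT, a difference of -0.14 (adjusted p = 0.478). The high values were those of the E17.5 WT arrays, and the 2 effects differed by -2.73 in the fit (adjusted p = 0.0387). This is not a measured size: neither E17.5 KO array was well above background, the probe passed the filter through the E17.5 WT arrays alone, the E17.5 fall is bounded at 1.20-fold, and with normexp its E17.5 difference was -0.37.

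The direction of the calls varied with how strongly a probe was read in footpad relative to the reference RNA, taken from the E16.5 arrays so that the E17.5 values did not set the groups. Among probes well above background on all 4 E17.5 arrays, those with an E16.5 ratio from -2 to -1, which were poorer in footpad than in the reference, were called higher in 2.95% and lower in 9.20% (n = 3118). Probes with a ratio from 1 to 2 were called higher in 9.08% and lower in 5.21% (n = 2841). In the 941 probes with a ratio of 4 or more, those richest in footpad, 6.27% were called higher and 1.70% lower. The median KO minus WT rose from -0.06 at ratios of -2 to -1 to 0.13 at ratios of 4 or more. Below -2 it was -0.03, with 4.34% called higher and 8.75% lower (n = 1383). Calls also varied with brightness, taken as the mean log2 Cy3 over the E16.5 arrays. Under 7, 1.72% were called higher and 3.73% lower (n = 3137), and at 12 or more 7.65% and 6.11% (n = 7123). The part of brightness in the pattern was not tested. By the probes' content of G and C, 6.58% were called higher and 5.61% lower at 30 to 40% (n = 6850), 4.01% and 6.81% at 50 to 60% (n = 5566), and 2.24% and 4.25% at 60% or more (n = 1387), and the part of base composition in the pattern was not tested.

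**Figure D4:**
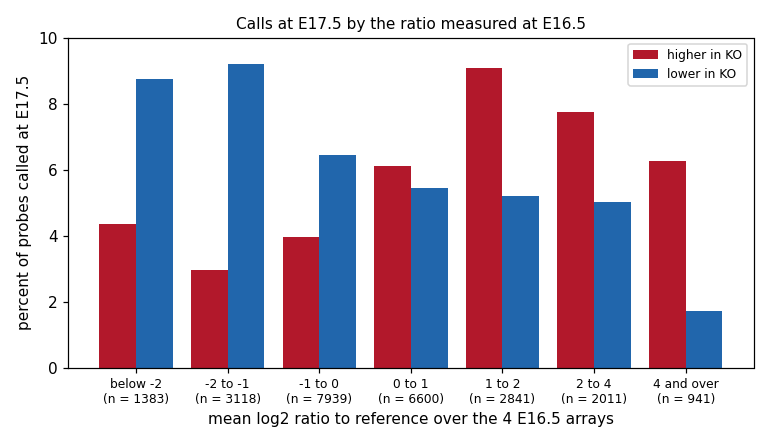
Percent of probes called higher or lower in KO at E17.5 (vertical axis) in 7 classes of the mean log2 ratio to the reference over the 4 E16.5 arrays (horizontal axis, with the number of probes in each class), for probes well above background on all 4 E17.5 arrays. Lower calls outnumber higher ones below 0, and higher calls outnumber lower ones from 0 up.

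Because Dicer makes microRNAs, the probes were also searched for seed matches: the 7 bases that pair with bases 2 to 8 of a microRNA. Of the 16 searched, 5 whose matches departed from all probes in shares or median, chosen after their values were seen, are shown with the seed in capitals, from RefSeq (GRCm38.p6).
mmu-let-7a-5p: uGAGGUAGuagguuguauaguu
mmu-miR-21a-5p: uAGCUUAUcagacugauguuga
mmu-miR-17-5p: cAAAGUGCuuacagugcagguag
mmu-miR-203-3p: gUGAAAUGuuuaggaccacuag
mmu-miR-125b-5p: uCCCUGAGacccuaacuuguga

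The motif is written as on the probe, and a probe of 60 bases covers only a short stretch of its transcript, so a transcript without a match in its probe can hold one elsewhere. Probes run in the sense of the messenger RNA more often than not, as far as the polyadenylation signal AATAAA tells: 6.93% of all probes hold it, against 3.36% for its reverse complement TTTATT. A match is a description and not a functional site.

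The let-7 match CTACCTC, shared by the let-7 family and miR-98, was in 0.364% of all probes on the array, and 107 of the probes with it were tested. Of these 15 were higher in KO (14.0%, against 5.05% of all tested) and 3 lower (2.80%, against 6.26%), and the median difference over the 107 was 0.02, against -0.0032 over all probes. Its reverse complement GAGGTAG was in 72 tested probes, of which 6 were higher (8.33%) and 2 lower (2.78%). The following called probes, 4 higher and 1 lower, are shown with the match in capitals, within at most 27 bases.
Z00050677-1: tccctaacccCTACCTCtgacagtctc
Z00016535-1: aataacactaCTACCTCcaacgggtcc
Z00018218-1: aaacacactaCTACCTCttaagtccca
Z00056156-1: cCTACCTCagggttgctg
Z00075696-1: agcctacacaCTACCTCagcaggattc

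Z00050677-1 had the widest rise of the 15, with 2.81 and 2.55 in KO and 1.54 and 1.89 in WT, a difference of 0.96 ± 0.19 (SE, adjusted p = 0.0332), but it differed by -0.05 at E16.5. Z00018218-1 read -2.14 and -2.22 in KO and -2.90 and -3.00 in WT, a difference of 0.77 ± 0.08 (SE, adjusted p = 0.00825), and 0.66 at E16.5 (adjusted p = 0.0401). Z00016535-1 differed by 0.78 (adjusted p = 0.0249) and Z00056156-1 by 0.70 (adjusted p = 0.0143), with E16.5 values of -0.05 and 0.48. Z00034228-1 differed by 0.43 (adjusted p = 0.0125) and was called at E16.5 at 0.65 (adjusted p = 0.0258). The widest fall was that of Z00075696-1, at -1.68 ± 0.17 (SE, adjusted p = 0.00825) and 0.13 at E16.5. No 2 of the 18 called probes overlap in sequence, and 12 of the 15 rises were above 0 at E16.5, where 1191 of all 1365 called rises were.

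For the other 15 microRNAs the share of higher calls lay closer to that of all probes, while some shares of lower calls lay farther from it than that of let-7. The miR-21a match ATAAGCT was in 83 tested probes, of which 8 were higher (9.64%) and 1 lower (1.20%). For miR-17 and the microRNAs that share its seed (GCACTTT), 13 of 131 were higher (9.92%) and 8 lower (6.11%). Of the skin microRNAs, miR-203 (CATTTCA) had 16 of 182 higher (8.79%) and 9 lower (4.95%), with a median difference of 0.06. The miR-205 match ATGAAGG had 8 of 176 higher (4.55%) and 4 lower (2.27%), and the miR-200b match CAGTATT 9 of 149 higher (6.04%) and 11 lower (7.38%).

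The miR-125b match CTCAGGG went the other way, with 10 of 130 higher (7.69%), 16 lower (12.3%) and the lowest median of the 16 motifs, -0.06. Over these 16 motifs on the probe strand, 13 had a larger share of higher calls than all tested probes and 6 a larger share of lower calls, and 12 medians lay above that of all probes. The reverse complements of the motifs had 9, 7 and 8 of 16. Some of them reached shares of higher calls like those given above for miR-17, miR-21a and miR-203. The reverse complement for miR-19b had 12 of 100 higher, for miR-26a 9 of 98 (9.18%) and for miR-17 11 of 128 (8.59%). Those for miR-203 and miR-21a had 5.15% and 2.56% higher. The difference between the strands was not tested. At E16.5 the medians of the let-7, miR-203, miR-17 and miR-125b probes were 0.02, 0.04, 0.06 and -0.04, against 0.0053 over all probes.

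**Figure D5:**
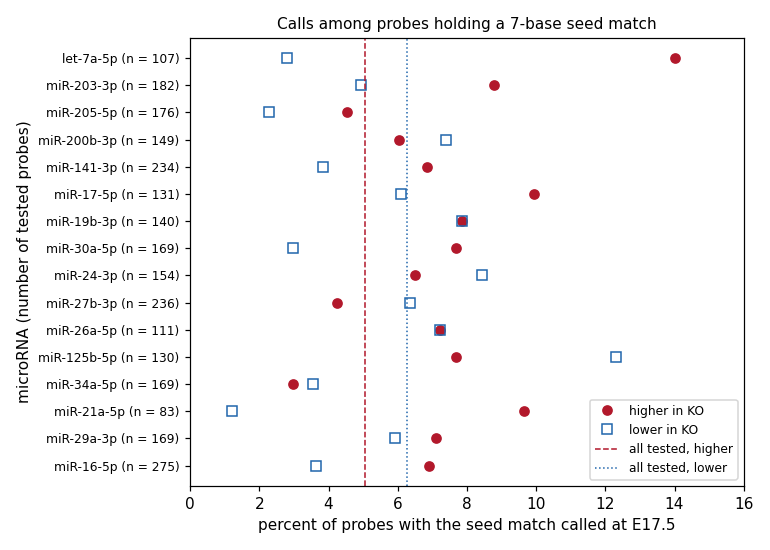
Percent of tested probes with a seed match that were called higher (filled points) or lower (open squares) in KO at E17.5, for 16 microRNAs, with the number of tested probes beside each name. Dashed and dotted lines mark 5.05% and 6.26%, the shares of all tested probes, and the let-7a point at 14.0% lies farthest to the right among the higher calls.

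A place in the genome could be given for few probes, since only the windows from 250 bases before to 50 after RefSeq start sites were at hand (GRCm38.p6). Of 42006 probes 257 matched such windows at 1 place, 167 of these were tested and 13 were called, 4 higher and 9 lower (7.78% against 11.3% of all tested). Z00032009-1 (chr11:114668538-114668597, plus strand) and Z00075310-1 (chr11:114668526-114668585, plus strand) overlap at the start of Rpl38, which encodes a protein of the large ribosomal subunit. The first read -3.32 and -3.16 in KO and -2.48 and -2.69 in WT, a difference of -0.65 ± 0.10 (SE, adjusted p = 0.0197). The second read -3.85 and -3.90 in KO and -3.25 and -3.28 in WT, a difference of -0.61 ± 0.08 (SE, adjusted p = 0.017). In both, the KO arrays lay below the WT arrays, and at E16.5 the differences were -0.37 and -0.49.

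Further located probes that fell lie at the starts of Lemd3, which encodes an inner nuclear membrane protein (-0.48), Trmt112, which encodes an activator of several methyltransferases (-0.45), Nabp2, which encodes a single-strand DNA binding protein (-0.31), Ints11, which encodes the endonuclease of the Integrator complex (-0.28), and Gm9828 (-0.31). Probes at Tmc4 and at Adk, which encodes adenosine kinase, were higher by 0.20 and 0.26. Their adjusted p-values ran from 0.0233 to 0.0499. The Lemd3 probe passed the filter through the WT arrays alone, so its fall and its p-value describe the filter and not the genotype. At E16.5 the Lemd3 probe differed by -0.025. A match to a window gives the probe's place and not proof that the spot reads that gene alone.

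The reference channel was used to see on which dye the calls rest. Tested alone, Cy3 gave 3170 calls (11.6%), and 2096 of these were also called in the ratio. Cy5, which held the same reference RNA on every array, gave 4 calls (0.0147%). The 3078 probes called in the ratio had a median absolute difference of 0.38 in Cy3 and of 0.04 in Cy5, and 3068 had the same sign in Cy3. On both slides the KO samples lay at array positions 1 and 2 and the WT samples at 3 and 4. Genotype and position therefore cannot be told apart at either stage.

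On KO E17.5 replicate 2 the local Cy3 background reached 26390 at some spots, whereas the highest on the other E17.5 arrays was 52. Feature Extraction had marked 297 to 332 of 43451 spots as non-uniform on each E17.5 array, and among unmarked spots of that replicate the highest was 49.5. The reported values leave those spots out. With normexp fitted on all spots, marked ones included, 31 probes were called, 4 higher and 27 lower, and without them 4469, of which 2114 were higher and 2355 lower.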

How the data were processed

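Deposited scanner files of 8 two-colour arrays were used. Per the file headers, Agilent Feature Extraction 9.5.1.1 gave spot and background intensity and a processed intensity, from which background and dye bias had been removed. The authors' deposited series matrix holds log10 values and was an alternative. Members and lists were chosen with earlier results of these data known. Control spots and marked spots were left out, and repeated spots averaged. Ratios were fitted with lmFit and eBayes in limma 3.58.1 under R 4.3.3, with 1 mean per group over all 8 arrays; p-values were adjusted by Benjamini-Hochberg over all tested probes. Arrays, 2 per group, limit the precision. Alternatives were normexp (offset 50) with loess, Cy3 alone (each array's 75th percentile subtracted), scaling, filters, thresholds and left-out arrays. Named probes are the 12 widest rises and falls measured on all 4 arrays, the 4 largest bounds and the 3 smallest adjusted p-values in each direction, all with KO arrays on 1 side of both WT arrays. Cell type marker and gene lists matched 0 located probes and gave no value. Same-numbered replicates deviated together at r = -0.0095 at E17.5 and -0.11 at E16.5. The arrays were fitted as unpaired, but with 2 arrays per group these values cannot exclude a pairing by number.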

Additional observations from a re-analysis of the deposited data

Results flagged for a closer look

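The effect of the knockout on Z00022985-1 differed between the stages by -2.73 on the log2 scale (adjusted p = 0.0387, limma's moderated test of the difference). At E17.5 KO minus WT was -2.88, and it was -0.14 at E16.5, with the E17.5 WT arrays at 2.17 and 2.00 and the other 6 arrays between -1.37 and -0.67. Each stage had its own slide, so for this difference they cannot be told apart. The probe passed the filter through the E17.5 WT arrays alone and was not well above background on either E17.5 KO array, so its fall at E17.5 is bounded at 1.20-fold, and with normexp it was -0.37. With 2 arrays in a group no single array could be tested for standing apart.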

How the results depend on the processing

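The count of changed probes was 3078, and stayed within 1.5 times of it with normexp without the marked spots, Cy3 alone, median centring (2955), marked spots kept, the series matrix, both dyes measured on all 4 arrays, a trend and robust prior and array weights; Aquantile leaves the ratio as it is. It was 31 with normexp on all spots, 433 with no filter on dim probes, 0 with the 4 E17.5 arrays alone, 299 at an adjusted p under 0.01, 656 over 1.5-fold, and 199 to 1949 with 1 array left out. With the replicate number as a block the count was 1, and 191 with the numbers crossed at E16.5, an alternative chosen after seeing the data. The share of calls that were higher was 44.6%, and 12.9% with normexp on all spots and 33.1% at an adjusted p under 0.01. The count for the difference between stages was 1, and 94 with normexp without the marked spots, 14 in Cy3 alone, and 0 with normexp on all spots, no filter, both dyes measured, or either block, and 0 to 2 with 1 array left out. The one reversed value was that of Z00024642-1, -0.95 with normexp on all spots, where 27 of 37 named probes lost their call and 9 kept it. The share of calls with the same sign at E16.5 was 81.7% to 91.3% with 1 array left out. The causes of these shifts were not tested. Dim signal in Cy3 limits the values on the low side of probes near background. Dim signal in Cy5 limits the ratios of probes not well above background in both dyes, and 2 arrays a group limit all values.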
